A study of Mus musculus with 18 samples.

Results

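Adipokines are the signalling and transport proteins that fat cells release, and 7 mouse genes for such products were followed here: Adipoq, Cfd, Lep, Retn, Rbp4, Hp and Car3. They were chosen by name, with earlier results of these data known. Their transcript values were summed by gene symbol in both deposited count tables and scaled to counts per 1000000 of the library total (CPM). Of the 7, 6 had a row in both tables, among 17267 gene symbols with a row in either. Lep, which encodes the satiety hormone leptin, had no row in either table and was not analysed here.

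All 18 RNA-seq libraries came from wildtype mouse primary preadipocytes of epididymal white fat, the fibroblast-like precursors of fat cells, with 3 libraries in each of 6 groups. The first 12 libraries held undifferentiated cells. Control diet mice gave the CD mock cells, left untreated, the CD TGF-b1 cells, given the cytokine TGF-b1, and the CD TGF-b1 SB431542 cells, given the cytokine and SB431542, which inhibits TGF-b type I receptor kinases. HFD mock cells, also untreated, came from animals fed a high-fat diet. In the other 6 libraries, preadipocytes were first sorted with an antibody to CD49e, the integrin alpha5 chain encoded by Itga5, and the Itga5-High and Itga5-Low cells were then taken through adipogenic differentiation. A group with SB431542 alone was not analysed here, and neither doses nor times nor animal numbers were stated in the labels. Nothing in the labels ties the 3 libraries of a group to separate animals or cultures. The p-values below therefore measure only library-to-library spread, possibly technical in origin. These are bulk libraries, in which fewer cells of a type and less RNA per cell cannot be told apart.

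Adipocytes switch on this set late in differentiation, when the nuclear receptor PPARgamma (Pparg) and C/EBPalpha (Cebpa) hold the fat cell programme in place. Adipoq encodes adiponectin, an insulin-sensitising hormone. Retn encodes resistin, a hormone that opposes insulin action in mice. Rbp4 encodes the carrier of retinol in blood, made by liver and fat. Cfd encodes adipsin, the serine protease known as complement factor D, which cleaves factor B to start the alternative pathway. Hp encodes haptoglobin, an acute phase protein that binds free haemoglobin. Car3 encodes carbonic anhydrase 3, an abundant cytosolic protein of fat and muscle, so it is an adipocyte product but not a classical secreted hormone. TGF-b is known as an inhibitor of fat cell differentiation that acts through Smad transcription factors.

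Promoters are shown for 4 members that moved together in the undifferentiated cells, because PPARgamma, C/EBP and Smad proteins act through DNA near such start sites. The RefSeq promoter table on GRCm38.p6 (mm10) had an entry for 5 of the 7 members, all but Hp and Car3, and each window runs from 250 bases before to 50 bases after the annotated start. Sequences are on the gene's strand, 5′ to 3′, and capitals mark the motif matches named after them. For Rbp4 the window of the shorter transcript, which held nearly all of its counts, is printed.
Adipoq, chr16:23146286-23146585, plus strand: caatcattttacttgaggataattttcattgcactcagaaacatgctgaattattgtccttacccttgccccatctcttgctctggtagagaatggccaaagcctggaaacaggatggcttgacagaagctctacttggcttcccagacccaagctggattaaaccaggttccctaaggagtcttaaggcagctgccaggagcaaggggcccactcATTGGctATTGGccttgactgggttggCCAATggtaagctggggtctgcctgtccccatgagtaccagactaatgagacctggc
Cfd, chr10:79890603-79890902, plus strand: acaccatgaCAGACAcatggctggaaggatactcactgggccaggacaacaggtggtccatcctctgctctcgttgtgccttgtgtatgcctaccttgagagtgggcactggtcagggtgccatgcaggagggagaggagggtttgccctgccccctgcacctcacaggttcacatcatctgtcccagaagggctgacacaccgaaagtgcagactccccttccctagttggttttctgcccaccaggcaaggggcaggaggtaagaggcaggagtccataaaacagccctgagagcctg
Retn, chr8:3655520-3655819, plus strand: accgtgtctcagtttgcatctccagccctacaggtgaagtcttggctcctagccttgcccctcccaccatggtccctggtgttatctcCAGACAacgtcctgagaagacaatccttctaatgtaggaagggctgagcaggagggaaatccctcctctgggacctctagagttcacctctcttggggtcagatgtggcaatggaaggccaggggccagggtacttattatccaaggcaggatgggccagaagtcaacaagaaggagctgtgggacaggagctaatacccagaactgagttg
Rbp4, chr19:38124762-38125061, minus strand: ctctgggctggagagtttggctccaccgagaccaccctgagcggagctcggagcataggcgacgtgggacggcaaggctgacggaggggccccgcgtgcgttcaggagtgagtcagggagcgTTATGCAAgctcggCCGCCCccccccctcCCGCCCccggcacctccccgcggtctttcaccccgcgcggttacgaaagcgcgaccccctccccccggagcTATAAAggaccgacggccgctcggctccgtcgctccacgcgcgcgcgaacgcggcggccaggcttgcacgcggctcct

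A search of both strands was made for 7 motifs. They were the C/EBP-type element TTGCNNAA, the nuclear receptor half-site AGGTCA, the box of the letters CCAAT, the TATA box spelled TATAAA, the GC box spelled GGGCGG, the Smad element spelled CAGACA and the E-box spelled CACGTG. The motifs do not overlap one another in the printed windows. The Adipoq window held 3 CCAAT boxes, at 34, 27 and 7 bases before the start, the first pair of them on the opposite strand. The Cfd and Retn windows each held 1 Smad element, at 241 and 162 bases before the start. The Rbp4 window held a C/EBP-type match at 128 bases before the start on the opposite strand, GC boxes at 114 and 99 bases before it and a TATA box at 28 bases before it. Of 32851 mouse promoter windows of this length, 37.4% held a CCAAT box, 21.04% the Smad element, 10.8% the C/EBP-type element, 35.7% a GC box and 13.6% the TATA box. No motif was shared by all 4 printed windows, and a match is a run of letters, not a measured binding site.

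Library totals ran from 11154426 to 17288580 counts, so 1 count was worth less than 0.1 CPM. Labels were checked against marker genes: the 10 preadipocyte markers, such as Pdgfra and Dcn, all had a row in both tables and summed to between 1268 and 4235 CPM in every library. In TGF-b1 libraries that sum rested mostly on Pdgfrb, at 922 CPM on average. Pdgfra averaged 138.5 and Dcn 152 CPM there, against 496 and 998 CPM in CD mock. By the test below, 8 of the 10 were lower and 2 higher with TGF-b1. Mesothelial markers were present too, at 2538 to 2573 CPM in CD mock, and are given with each comparison. Neutrophil markers summed to at most 1.82 CPM and hepatocyte markers to at most 6.35 CPM, with Alb, Ttr and Tf without a row in either table. Pericyte markers summed to 593 to 609 CPM in CD mock, 652 to 653 with TGF-b1, 954 to 983 with TGF-b1 and SB431542, and 540 to 556 in HFD mock libraries. Replicate libraries of a group differed little beyond counting, with a chi-square per degree of freedom between 1.15 and 1.25. Genes were tested with edgeR's quasi-likelihood test and called at a Benjamini-Hochberg adjusted p under 0.05, over 14078 genes in the undifferentiated and 13468 in the differentiated cells.

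**Figure D1:**
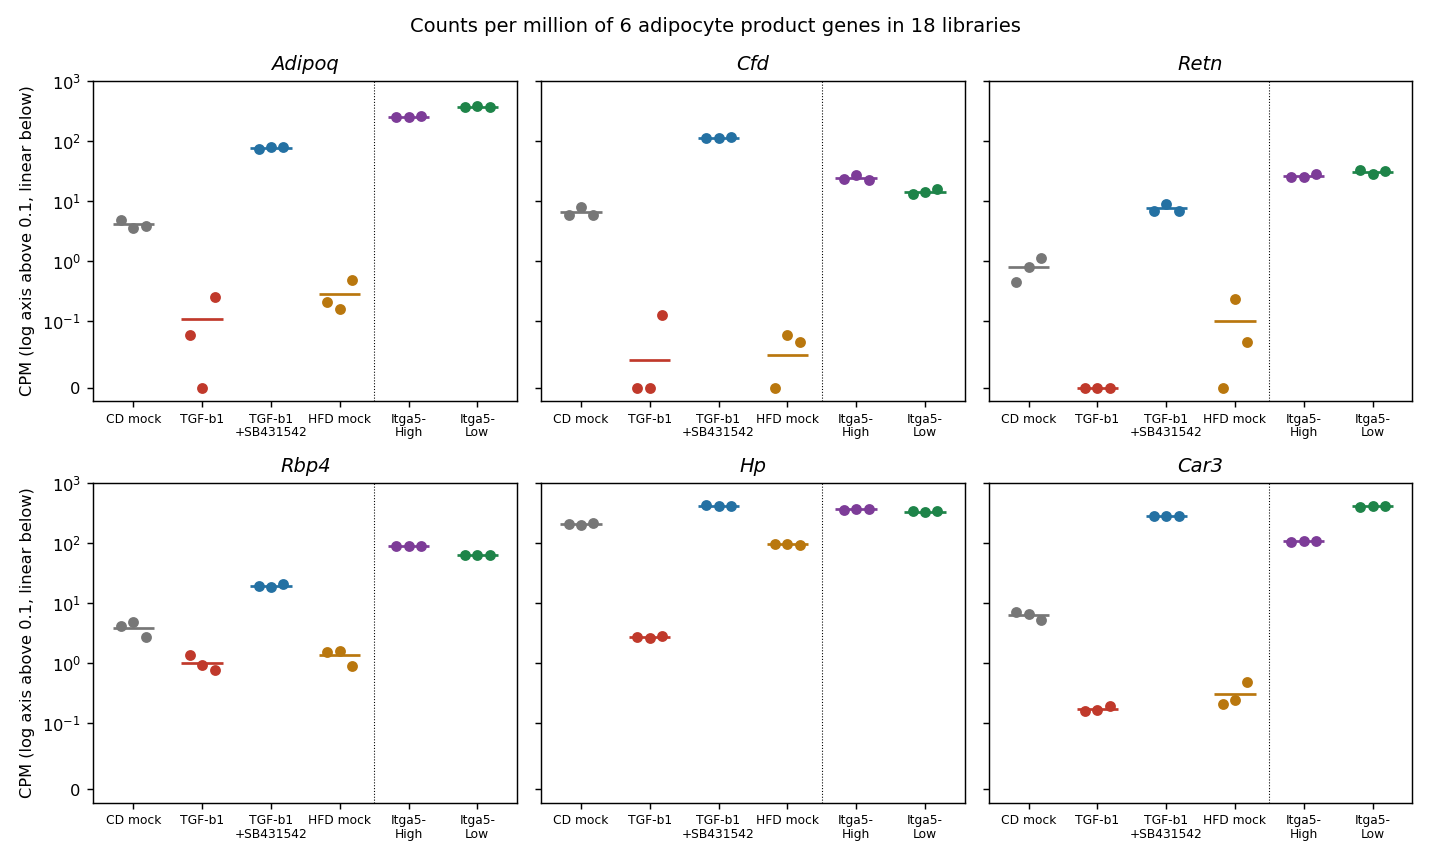
CPM of the 6 measured genes in the 18 libraries, on an axis that is logarithmic above 0.1 and linear below; points are libraries, short lines are group means, and the dotted line separates the tables of undifferentiated and differentiated cells. In each panel the TGF-b1 libraries lie below all CD mock libraries and the TGF-b1 with SB431542 libraries above them, and Hp alone stays above 90 CPM in the HFD mock libraries.

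The hormones Adipoq and Retn were low in untreated preadipocytes and high after differentiation. Adipoq read 4.84, 3.54 and 3.85 CPM in the CD mock libraries, 0.0787, 0 and 0.248 with TGF-b1, 74.9, 78.3 and 79.2 with TGF-b1 and SB431542, and 0.206, 0.158 and 0.475 in the HFD mock libraries. The TGF-b1 and HFD libraries lay below every CD mock library, on sums of only 5 and 12 counts over 3 libraries. In differentiated cells Adipoq read 253, 249.7 and 257 CPM in Itga5-High and 372.5, 378 and 371 CPM in Itga5-Low libraries, without overlap. Retn read 0.448, 0.794 and 1.14 CPM in CD mock libraries, 0 in all 3 TGF-b1 libraries, 6.91, 8.74 and 6.86 with TGF-b1 and SB431542, and 0, 0.236 and 0.0679 in HFD mock libraries. These values rest on 29 Retn counts over the CD mock group and 4 over the HFD mock group. Differentiated cells gave Retn 25.2, 25.3 and 28.4 CPM in Itga5-High and 33.1, 28.3 and 31.6 CPM in Itga5-Low, where the lowest Itga5-Low library fell below the highest Itga5-High library.

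The carrier Rbp4 moved the same way over a narrower range. It read 4.03, 4.84 and 2.66 CPM in CD mock libraries, 1.34, 0.899 and 0.744 with TGF-b1, 18.7, 18.1 and 20.2 with TGF-b1 and SB431542, and 1.51, 1.58 and 0.883 in HFD mock libraries. Neither the TGF-b1 nor the HFD libraries overlapped the CD mock libraries, but they overlapped each other. In differentiated cells it read 86.5, 89.3 and 86.9 CPM in Itga5-High and 62.0, 63.3 and 61.9 CPM in Itga5-Low, the opposite order to Adipoq.

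The complement protease Cfd read 5.74, 7.87 and 5.86 CPM in CD mock libraries and 111, 110.8 and 116 CPM with TGF-b1 and SB431542. Over the 3 TGF-b1 libraries it had 2 counts, both in replicate 3, and over the HFD mock libraries 2 counts, 1 each in replicates 2 and 3. Differentiated cells held less Cfd than the inhibitor-treated cells, at 22.96, 27.3 and 22.7 CPM in Itga5-High and 13.1, 14.3 and 15.6 CPM in Itga5-Low, values set side by side from separate tables and not tested. Hp differed from the other members in being abundant already in untreated preadipocytes. It read 204, 199 and 211 CPM in CD mock libraries, 2.68, 2.53 and 2.79 with TGF-b1, 419, 415 and 413 with TGF-b1 and SB431542, and 93.8, 93.5 and 93.1 in HFD mock libraries. In differentiated cells Hp read 356, 362 and 359 CPM in Itga5-High and 332.5, 326 and 334 CPM in Itga5-Low, so the sorted groups lay close together without overlapping.

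The enzyme Car3 ranged from near the detection limit to among the highest levels of the set. It read 6.99, 6.43 and 5.08 CPM in CD mock libraries, 0.157, 0.163 and 0.186 with TGF-b1, 282, 282.5 and 274 with TGF-b1 and SB431542, and 0.206, 0.236 and 0.475 in HFD mock libraries. The TGF-b1 group rested on 7 counts and the HFD group on 13. After differentiation Car3 read 104, 108 and 106 CPM in Itga5-High and 397, 411 and 415 CPM in Itga5-Low libraries.

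Levels of different genes were compared as CPM per kilobase of transcript. In CD mock cells Hp stood at 153 ± 4.45 CPM per kb (SD, n = 3), far above Cfd at 7.28 ± 1.40, and Retn was lowest at 1.32 ± 0.60. Between them Rbp4 at 4.13, Car3 at 4.03 and Adipoq at 3.31 CPM per kb overlapped between libraries. With TGF-b1 the order was Hp at 2.06 and Rbp4 at 1.07 CPM per kb, and Car3, Adipoq and Cfd overlapped at 0.110 or less. With TGF-b1 and SB431542 no neighbours overlapped, from Hp at 310 through Car3 at 183, Cfd at 125, Adipoq at 62.9 and Rbp4 at 20.4 down to Retn at 12.5 CPM per kb. In HFD mock cells Hp at 69.7 CPM per kb exceeded Rbp4 at 1.42, and the other 4 lay at 0.227 or less. Itga5-High cells ranked Hp at 267, Adipoq at 206, Rbp4 at 94.0, Car3 at 69.3, Retn at 43.4 and Cfd at 27.0 CPM per kb. In Itga5-Low cells Adipoq led at 303 CPM per kb, Car3 at 267 and Hp at 246 followed, and Rbp4, Retn and Cfd stood at 67.0, 51.3 and 16.3. Neighbours in the order did not overlap between libraries in either sorted group.

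TGF-b1 was compared with mock treatment to ask what the cytokine does to preadipocytes. All 6 measured members were lower with TGF-b1, beside 34.2% of all tested genes called lower, 33.4% called higher and 67.6% in either direction. For each of the 6 every TGF-b1 library lay below every mock library, and 70.6% of tested genes had no overlap in either direction. Adipoq, Cfd and Car3 had enough counts to be tested only through the CD mock and the inhibitor groups, and Retn only through the inhibitor group. Rbp4 had enough in every undifferentiated group but TGF-b1. For all of these genes the count over the set therefore carries no weight of its own. Hp fell most firmly, with a ratio of pooled CPM of 76.3 (95% counting interval 63.2 to 92.9, counting error only). Its edgeR log2 fold change was -6.10 ± 0.13 (SE) with an adjusted p of 1.4e-47, and 0.142% of tested genes changed by more. Rbp4 fell least, 4.0 times lower (interval 2.80 to 5.84), with an edgeR log2 fold change of -1.84 ± 0.27 and an adjusted p of 4.9e-08.

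The remaining members were close to the detection limit with TGF-b1, and their ratios carry wide intervals. Car3 was 36.2 times lower (interval 17.3 to 91.2), with an edgeR adjusted p of 3.4e-19. Adipoq was 33.2 times lower (13.9 to 104, edgeR adjusted p 5.5e-15), and 101 times lower without TGF-b1 replicate 3, which held 4 of its 5 counts. Cfd, with 2 counts left, was 135 times lower (37.1 to 1124, edgeR adjusted p 1.6e-19). Without TGF-b1 replicate 3 it had 0 counts left and was at least 54.8 times lower, against a floor of 3 counts over the group. Retn had 0 counts over the TGF-b1 group and was at least 10.9-fold lower against that floor (edgeR adjusted p 2.8e-06), or at least 6.62-fold lower without TGF-b1 replicate 3.

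Genes around the members were counted from lists, which are given as descriptions beside the median log2 fold change of all tested genes, -0.02. Of 28 other adipokines tested, 8 rose and 16 fell with TGF-b1 (median -0.51). Saa3, an acute phase apolipoprotein, fell by 4.95 on the log2 scale, Agt, the angiotensin precursor, by 4.0, and Ptx3, a secreted pattern recognition protein, by 2.89. Of 15 receptors and partners, 4 rose and 9 fell (median -0.31). Those that fell included the complement genes C3 (-3.78) and Cfb (-2.65), the latter for the factor B that the Cfd product cleaves, and Cdh13 (-2.71), the T-cadherin that binds adiponectin at the cell surface. Among 15 transcription factors of the adipocyte programme 1 rose and 14 fell (median -0.72), with Cebpa at -1.48 ± 0.040, Pparg at -0.97 ± 0.080 and Cebpb at -0.86. The 26 intracellular adipocyte genes held 5 that rose and 17 that fell (median -0.78), with G0s2, an inhibitor of lipolysis, at -2.70, the lipid droplet gene Plin4 at -2.67, Cd36, a fatty acid transporter, at -2.10 and Fabp4, a fatty acid binding protein, at -1.80. The 12 genes for adiponectin folding and release showed no common direction under edgeR's scaling, with 5 higher and 3 lower (median 0.05), while scaling by library totals gave 3 higher and 6 lower (median -0.10). Sort1, a sorting receptor, fell there by 0.997 on the log2 scale, while the lysyl hydroxylase genes Plod3 and Plod2 stood at 0.40 and 0.30.

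Markers of other cell types moved between these groups too. Mesothelial markers summed to 2538 to 2573 CPM in CD mock and 668 to 681 CPM in TGF-b1 libraries, with 9 of 10 lower. Endothelial markers summed to 628 to 649 and 412 to 420 CPM, with 7 of 9 lower, and preadipocyte markers to 2905 to 2931 and 1268 to 1286 CPM, with 8 of 10 lower. Macrophage markers summed to 582 to 596 CPM in CD mock and 587 to 601 CPM in TGF-b1 libraries, with 4 of 14 higher and 5 lower. None of these markers was at 0 in either group, and the part of these cell types in the members' fall was not tested.

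Haptoglobin transcripts shifted in share as well as in level. The Hp gene lies at chr8:109575128-109579173 on the minus strand (mm10), and the tables list 1 transcript of 1345 bases and 1 of 1259 bases over it. The shorter transcript held 4.37% of Hp counts in CD mock cells (3.32% to 6.48% over libraries), 4.68% with TGF-b1 and SB431542 and 3.59% in HFD mock cells, and 2.75% and 2.72% in Itga5-High and Itga5-Low cells. With TGF-b1 it held 56.0% (49.3% to 62.8% over libraries), above every library of the other groups. The longer transcript went from 7114 estimated counts over the CD mock group to 48.5 with TGF-b1, and the shorter one from 325 to 61.6. Because reads on shared exons were divided between transcripts by estimation and only 110 Hp counts remained with TGF-b1, the share was described and not tested. With only the transcript of most counts of each gene, the longer one for Hp, the edgeR log2 fold change of Hp was -7.21 in place of -6.10.

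**Figure D2:**
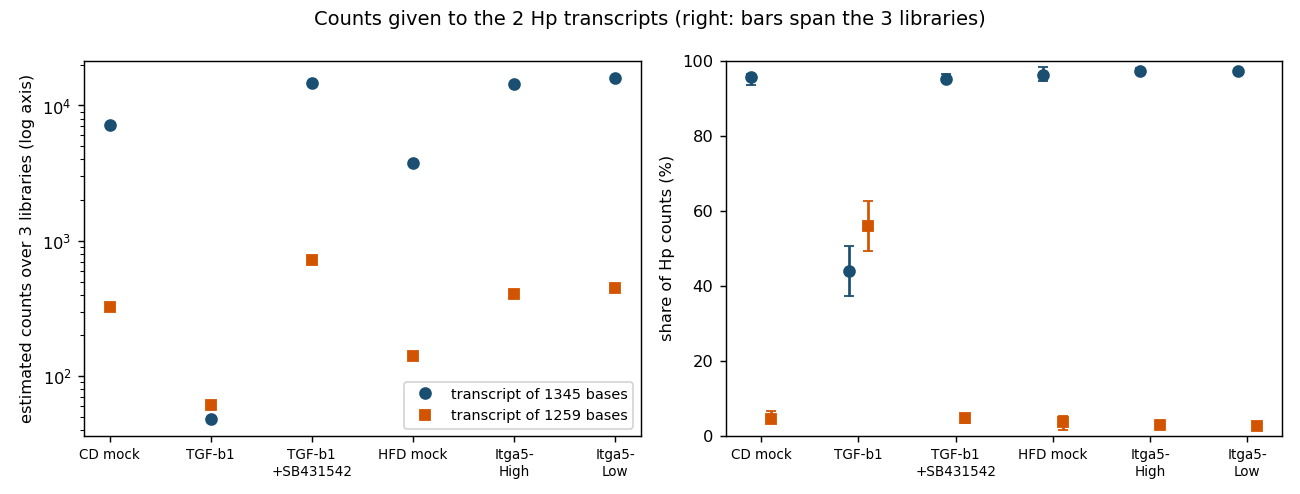
Left, estimated counts over 3 libraries (log axis) given to the Hp transcripts of 1345 bases (circles) and 1259 bases (squares) in each group; right, their share of Hp counts in percent, with bars from the lowest to the highest library. The shorter transcript holds 56.0% of Hp counts with TGF-b1 and under 5% of the pooled counts in the other 5 groups.

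Other members had transcripts that were less informative. Adipoq and Car3 had 1 listed transcript each, of 1232 and 1529 bases. Retn had 2, of which the one of 582 bases held 92.9% of counts in CD mock cells and 91.6% and 92.3% in Itga5-High and Itga5-Low cells. Rbp4 counts lay entirely on a transcript of 930 bases in undifferentiated cells, and a longer one of 1243 bases, listed only for differentiated cells, held 0.518% and 0.607% in Itga5-High and Itga5-Low cells. The 3 Cfd transcripts, of 922, 919 and 765 bases, share 1 span of the genome and were split unevenly between replicates. The one of 922 bases held 11.2% to 88.3% over the CD mock libraries, so only the Cfd gene sum was used.

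TGF-b1 with SB431542 was compared with TGF-b1 alone to ask how the members change when the inhibitor is added. Without SB431542 alone, blocking of the added cytokine cannot be told apart from other effects of the inhibitor. All 6 measured members were higher with the inhibitor than with TGF-b1 alone, beside 41.4% of tested genes called higher, 38.3% called lower and 79.7% in either direction. Again no libraries overlapped, as for 81.8% of tested genes. Adipoq, Cfd and Car3 had enough counts to be tested only through the CD mock and inhibitor groups, and Retn only through the inhibitor group. Rbp4 had enough in every undifferentiated group but TGF-b1. The count over the set carries no weight of its own for these genes, Rbp4 included. This comparison shares the TGF-b1 libraries with the one above, so the low counts of that group enter both. Hp was 155 times higher (interval 129 to 189), with an edgeR log2 fold change of 7.02 ± 0.13 and an adjusted p of 2.2e-53. With only the transcript of most counts, that log2 fold change was 8.13. Rbp4 was 19.5 times higher (14.2 to 27.5), with an edgeR log2 fold change of 4.02 ± 0.25 and an adjusted p of 1.8e-23. Car3 was 1641 times higher (796 to 4082, edgeR adjusted p 3.8e-51), and 1 of the 14078 tested genes, Cfd, had a larger fitted change. Adipoq was 636 times higher (272 to 1960, edgeR adjusted p 9.6e-39), or 1931 times without TGF-b1 replicate 3. Cfd was 2313 times higher (640 to 19108, edgeR adjusted p 6.3e-42), or at least 936 times without that library. Retn was at least 103-fold higher against the floor of 3 counts (edgeR adjusted p 2.4e-18), or at least 62.4-fold without it.

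The related lists moved in the same comparison, while the median of all tested genes was 0.04 by edgeR's scaling. Of 28 other adipokines 18 rose and 8 fell (median 1.25), with Agt at 6.36, Saa3 at 6.23 and Rarres2, the precursor of the adipokine chemerin, at 4.32. Of 15 receptors and partners 9 rose and 4 fell (median 1.24), including C3 at 5.07, Cfb at 4.29 and Cdh13 at 4.23. Of 15 transcription factors 14 rose and 1 fell (median 1.24), with Klf15 at 4.39, Pparg at 2.76 and Cebpa at 2.48. Of 26 intracellular adipocyte genes 21 rose and 4 fell (median 2.01), and Plin1, which coats lipid droplets, stood at 8.61, the adrenergic receptor Adrb3 at 5.83 and Gpd1, which makes glycerol phosphate, at 4.50. The adiponectin folding list again had no common direction, with 5 higher and 7 lower, or 5 and 5 by library totals, among them Sort1 at 2.05, Plod2 at -1.38 and Plod3 at -0.78. Markers of other cells rose as well, 13 of 14 macrophage, 8 of 9 endothelial, 8 of 10 mesothelial and 8 of 10 preadipocyte markers, and their part in the members' rise was not tested.

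TGF-b1 with SB431542 was also set against mock cells, which had received neither. All 6 measured members were above the untreated level, beside 30.6% of tested genes called higher, 30.4% called lower and 61% in either direction. No library of one group overlapped the other for any of the 6, as for 65.5% of tested genes. Retn had enough counts to be tested only through the inhibitor group, so its place in that count carries no weight of its own. Car3 was 45.3 times higher (interval 39.7 to 51.9), with an edgeR log2 fold change of 5.39 ± 0.097 and an adjusted p of 3.6e-49. Only 0.0497% of tested genes changed by more. Adipoq was 19.2 times higher (16.2 to 22.8, edgeR log2 fold change 4.15 ± 0.13, adjusted p 2.2e-35) and Cfd 17.1 times (15.0 to 19.6, 3.99 ± 0.10, adjusted p 3.6e-38). Retn was 9.43 times higher (6.42 to 14.3), with an edgeR log2 fold change of 3.11 ± 0.31 and an adjusted p of 7.1e-14. Rbp4 was 4.87 times higher (4.06 to 5.88, edgeR log2 fold change 2.17 ± 0.15, adjusted p 7.0e-18). Hp, already abundant, was 2.03 times higher (1.98 to 2.09, edgeR log2 fold change 0.91 ± 0.022, adjusted p 2.1e-33).

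Of the 6 members, Hp rose least above mock. Beside them, 13 of 15 transcription factors rose above mock and 1 fell (median 0.48 against 0.01 for all tested genes), with Klf15 at 2.18, Nr1h3, the oxysterol receptor LXRalpha, at 1.92, Pparg at 1.79 and Cebpa at 1.0. Of 26 intracellular adipocyte genes 21 rose and 5 fell (median 1.22), with Adrb3 at 3.49, Plin1 at 2.81, Gpd1 at 2.46 and Fabp4 at 2.04. Of 28 other adipokines 16 rose and 8 fell (median 0.54), with Agt at 2.36 but Ccn5, a secreted matricellular protein, at -3.09 and the chemokine Cxcl14 at -2.10. Of 15 receptors and partners 9 rose and 2 fell (median 0.63), with Cfp, the stabiliser of the alternative complement convertase, at 2.28, Cfb at 1.64, Cdh13 at 1.52 and the adiponectin receptor Adipor2 at 0.62. In the folding list 4 rose and 7 fell (median -0.24), with Sort1 at 1.05, Plod2 at -1.07 and P4hb at -0.55. Macrophage markers summed to 1250 to 1276 CPM with TGF-b1 and SB431542, against 582 to 596 CPM in CD mock libraries, with 14 of 14 higher. Endothelial markers summed to 1227 to 1259 CPM, with 7 of 9 higher, and mesothelial markers to 2388 to 2397 CPM, with 1 of 10 higher and 7 lower. The part of these cells in the members' rise was not tested.

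**Figure D3:**
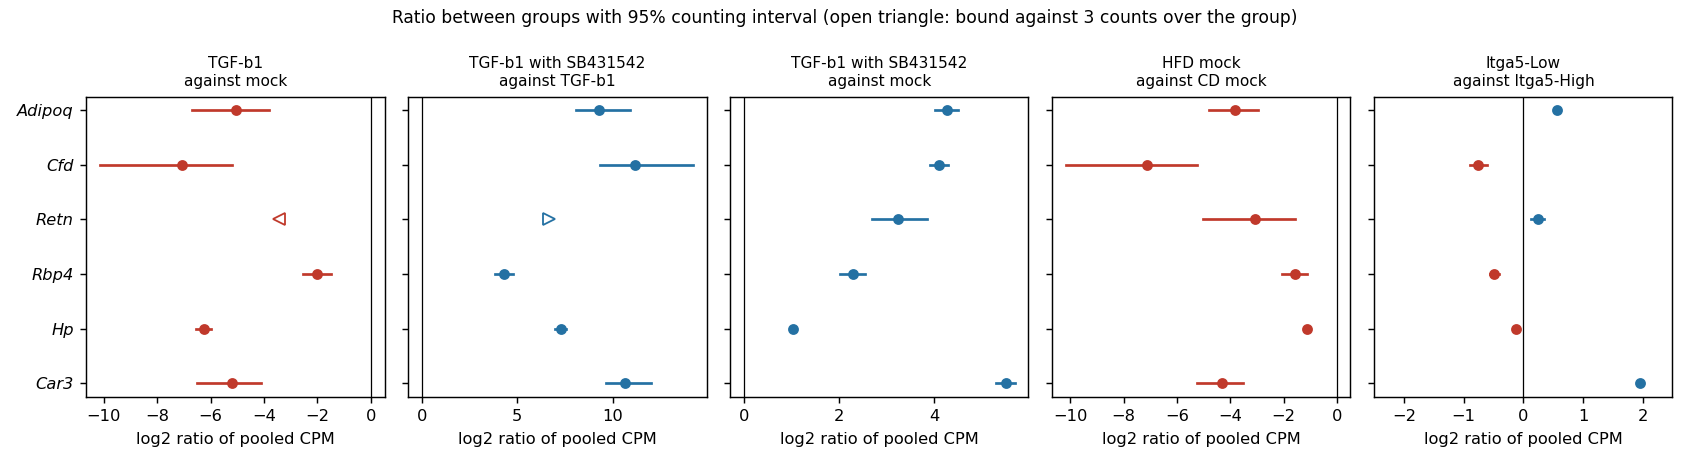
Log2 ratio of pooled CPM between the groups named above each panel, with its 95% counting interval; open triangles mark Retn where 1 group had 0 counts and the value is a bound against 3 counts. The axis range differs between panels, and the 6 genes lie on 1 side of 0 in each panel except Itga5-Low against Itga5-High.

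The diet comparison set HFD mock against CD mock cells, both untreated. All 6 measured members were lower in the HFD cells, beside 26.6% of tested genes called lower, 27.1% called higher and 53.7% in either direction. No libraries overlapped for any of the 6, as for 60.5% of tested genes. Adipoq, Cfd, Car3 and Retn had enough counts to be tested only through groups other than HFD mock. For these genes the count over the set carries no weight of its own. The CD mock libraries are the same as in the TGF-b1 comparison, so the values stand side by side and were not correlated. Hp was 2.19 times lower (interval 2.10 to 2.27), with an edgeR log2 fold change of -1.04 ± 0.028 and an adjusted p of 7.6e-31. With TGF-b1 the same gene had been 76.3 times lower. Rbp4 was 2.98 times lower (2.17 to 4.14, edgeR log2 fold change -1.48 ± 0.24, adjusted p 1.3e-06).

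The other members again stood at a few counts in the HFD group. Car3 was 20 times lower (11.4 to 38.1, edgeR adjusted p 1.4e-18). Adipoq was 14.1 times lower (7.85 to 28.0, edgeR adjusted p 7.7e-14), or 22 times without HFD mock replicate 3, which held 7 of its 12 counts. Cfd, with 2 counts left, was 138 times lower (37.9 to 1149, edgeR adjusted p 1.0e-19), or 90.4 times without HFD mock replicate 1. Retn was 8.36 times lower (2.94 to 32.7, edgeR log2 fold change -2.86 ± 0.82, adjusted p 0.00026). Its ratio was 5.46 without HFD mock replicate 1 and 23.3 without replicate 2, since only 4 counts remained.

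The surrounding lists did not move as 1 block with diet. Of 15 transcription factors 4 rose and 5 fell (median -0.11 against -0.01 for all tested genes), or 4 and 10 by library totals. Foxo1 stood at -0.64 and Ebf1 at 0.58. Pparg was slightly higher in HFD cells by edgeR's test, at 0.23 ± 0.063 with an adjusted p of 0.00094, and Cebpa at 0.43 ± 0.028 with an adjusted p of 7.8e-17. In CPM, Pparg went from 26.5 ± 1.0 to 29.3 ± 1.0 and Cebpa from 136 ± 5.5 to 174 ± 4.7 (SD, n = 3), while Adipoq went from 4.08 ± 0.68 to 0.279 ± 0.171. Of 26 intracellular adipocyte genes 4 rose and 16 fell (median -0.60), with Mgll, a lipase, at -1.62, Scd1, a fatty acid desaturase, at -1.24, G0s2 at -1.12 and Fabp4 at -0.72. Of 28 other adipokines 13 rose and 12 fell (median 0.24), with Agt at -1.90 but Ccn5 at 1.82 and Cxcl14 at 1.62. Of 15 receptors and partners 8 rose and 6 fell (median 0.21), Cdh13 at -2.07 and the complement genes Cfp at 2.42 and C3ar1 at 2.39. The folding list had 5 higher and 4 lower, or 5 and 5 by library totals, with Sort1 at -0.60, Plod3 at 0.44 and Plod2 at 0.31.

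Macrophage markers summed to 2586 to 2612 CPM in HFD mock and 582 to 596 CPM in CD mock libraries, with 13 of 14 higher and none at 0. Mesothelial markers summed to 630 to 642 against 2538 to 2573 CPM, with 10 of 10 lower, endothelial markers to 373 to 380 against 628 to 649 CPM, with 8 of 9 lower, and preadipocyte markers to 2021 to 2035 against 2905 to 2931 CPM, with 9 of 10 lower. The part of these cell types in the members' fall was not tested.

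After differentiation the comparison of Itga5-Low with Itga5-High cells asked whether the integrin level at sorting goes with the fat cell programme. The 6 members split, with Adipoq, Retn and Car3 higher and Cfd, Rbp4 and Hp lower in Itga5-Low cells, beside 26.5% of tested genes called higher, 27% lower and 53.5% in either direction. All 6 had counts over the filter in both groups, and the libraries of all but Retn did not overlap, as for 58.6% of tested genes. Car3 showed the widest difference, 3.86 times higher in Itga5-Low cells, with an edgeR log2 fold change of 1.91 ± 0.025 and an adjusted p of 3.4e-33, and 0.446% of tested genes changed by more. Adipoq was 1.48 times higher (edgeR log2 fold change 0.52 ± 0.018, adjusted p 1.3e-19). Cfd was 1.69 times lower (edgeR log2 fold change -0.80 ± 0.079, adjusted p 3.2e-10) and Rbp4 1.40 times lower (-0.53 ± 0.037, adjusted p 1.1e-14). Hp was 1.08 times lower (-0.16 ± 0.017, edgeR adjusted p 2.1e-07), and 56.4% of tested genes changed by more. Retn was 1.18 times higher, with an edgeR log2 fold change of 0.20 ± 0.065 and an adjusted p of 0.0086, but its libraries overlapped. That call was lost without Itga5-High replicate 1 (edgeR adjusted p 0.068) and without Itga5-Low replicate 1 (0.067). It was also lost with only the transcript of most counts of each gene, for Retn the one of 582 bases (edgeR adjusted p 0.10).

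Other readouts of the fat cell programme were mostly higher in Itga5-Low cells, although Pparg and Fabp4 were not called. Pparg did not pass the edgeR test, at 46.1 ± 1.3 CPM in Itga5-High and 46.3 ± 1.9 CPM in Itga5-Low cells (log2 fold change -0.03 ± 0.048, adjusted p 0.60). Fabp4 did not pass either, at 3073 and 3153 CPM, although in CPM of library totals its libraries did not overlap. They ran from 3066 to 3085 CPM in Itga5-High and from 3131 to 3175 CPM in Itga5-Low cells. Cebpa rose from 267 ± 5.1 to 374 ± 7.3 CPM, at 0.45 ± 0.019. Of 28 intracellular adipocyte genes 20 were higher and 4 lower in Itga5-Low cells (median 0.35 against 0.00 for all tested genes). They included Dgat2, which makes triglyceride, at 0.88, Acsl1, which activates fatty acids, at 0.86 and Me1, malic enzyme, at 0.58. Of 15 transcription factors 8 were higher and 1, Cebpb at -0.47, was lower (median 0.14), with Klf15 at 1.14. By library totals 11 were higher and 1 lower. The 27 other adipokines split as the members did, 10 higher and 10 lower. Rarres2 fell from 630 ± 6.6 to 182 ± 2.3 CPM and Angptl4, an inhibitor of lipoprotein lipase, from 534 ± 5.4 to 255 ± 4.1 CPM, while Apod, a lipid-binding apolipoprotein, rose by 1.56 on the log2 scale. Of 11 receptors and partners 5 were higher and 2 lower, or 7 and 1 by library totals. They included Cfb, which encodes the factor B that the Cfd product cleaves, at 0.98. Cdh13 stood at -0.61. Cfb was higher where Cfd was lower. In the folding list 3 were higher and 6 lower, with Sort1 at 0.77, Plod1 at -0.73 and Plod3 at -0.46.

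Macrophage markers summed to 43.7 to 44.3 CPM in Itga5-High and 23.1 to 23.8 CPM in Itga5-Low libraries, with 2 of 4 tested lower and Cd163, Ptprc and Fcgr1 without a row. Mesothelial markers summed to 99.4 to 102 and 42.8 to 45.8 CPM, with Msln, Krt8, Krt18 and Muc16 without a row, and endothelial markers to 83.2 to 86.4 and 123 to 126 CPM, with 3 of 7 tested higher. Preadipocyte markers summed to 2203 to 2236 and 2401 to 2441 CPM, with 5 of 10 higher and 3 lower. The part of these cells in the members' differences was not tested.

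**Figure D4:**
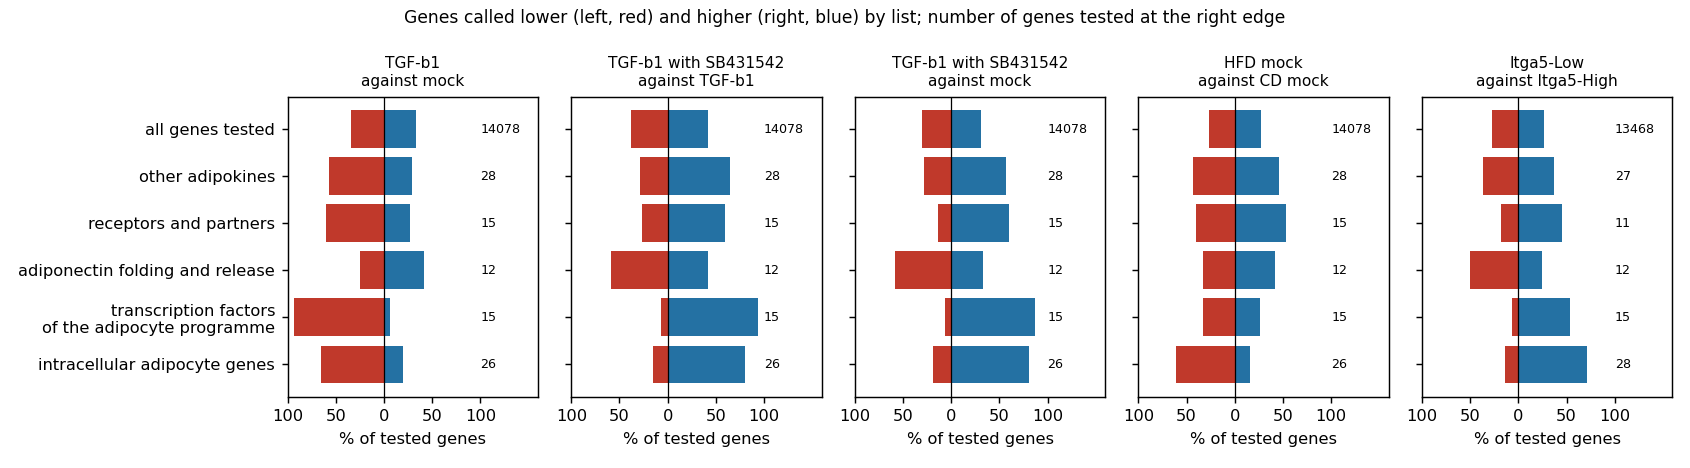
Percent of tested genes called lower (red, left of 0) and higher (blue, right of 0) by edgeR's quasi-likelihood test in each list and among all tested genes, for the 5 comparisons; the number of genes tested stands at the right edge. The transcription factor list has 14 of 15 genes lower with TGF-b1 and 14 of 15 higher when SB431542 was added, and it has 4 higher and 5 lower with diet.

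Across the 12 undifferentiated libraries the pattern of 5 members was nearly common and that of Hp was apart. On log2 (CPM + 1), Pearson's r between Adipoq and Car3 was 0.999 and between Adipoq and Cfd 0.994, while Hp had an r of 0.689 to 0.736 with the other 5. These points fall into 4 groups of like libraries, so r describes the spacing of 4 group levels and was given no p. In mean CPM each member, Hp included, was lower with TGF-b1 and in HFD mock than in CD mock, and highest with TGF-b1 and SB431542. Adding 1 CPM evens out levels under 1 CPM, where Adipoq, Cfd, Retn and Car3 stood in the TGF-b1 and HFD mock libraries. Likeness was ranked among 10341 genes with at least 10 CPM in 1 group, leaving out the members and Gm, Rik, LOC and clone-type symbols. Those most like Adipoq were Bst2 (0.998), Bmp2 (0.997) and Ifitm3 (0.996), and 635 of the ranked genes had an r over 0.95. Bst2 and Ifitm3, both interferon-induced membrane proteins, also led for Car3 (0.998 each), followed by Adrb3, the adrenergic receptor of fat cells, at 0.996. Grina, Klf9 and the pericyte marker Abcc9 were most like Cfd (0.999 to 0.998), and Ahcyl2, Pdzd2 and Igtp most like Rbp4 (0.990 each). Tgfbr3, a TGF-b co-receptor, Fzd1 and Islr were most like Hp (each 0.999). Pparg had an r of 0.913 with Adipoq and 0.846 with Hp. Cebpa had 0.95 with Hp and 0.734 with Adipoq.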

How the data were processed

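Total RNA was extracted and mRNA purified with magnetic beads, per the labels' protocols. The submitters' processing notes name fastp, STAR, featureCounts and the mm10 build. The deposited tables hold estimated counts per RefSeq transcript with a gene symbol, 32709 transcripts for 12 undifferentiated and 29641 for 6 differentiated libraries, and 28.8% and 26.0% of the values were whole numbers (within 0.01). How the authors divided reads between transcripts is not stated in the labels or headers. The Length column, in bases, is another deposited value and gave the CPM per kb.

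Values were summed by symbol and scaled to CPM of the library total (11154426 to 17288580). For tests, sums were rounded and fitted per table, all groups together, with edgeR 4.0.16 (R 4.3.3) after filterByExpr and TMM, whose factors ran from 0.920 to 1.10. Tests were two-sided, with Benjamini-Hochberg adjustment over all tested genes and no minimum fold. SEs came from a fit with dispersion at 1e-04 or above, a limit under which 3780 and 1746 genes fell. Ratios of pooled CPM carry exact 95% counting intervals, and groups at 0 take a floor of 3 counts. Scripts were tested on simulated counts. No block was used, because the labels do not say that replicate numbers pair libraries. Same-numbered libraries of undifferentiated cells did not deviate together (correlations -0.055 to 0.023 over 18 pairs).

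All measured members were named. Of each list, up to 3 called genes of largest change, reaching 10 CPM in 1 of the groups, were named, plus Pparg, Cebpa, Fabp4, Adipor2, Lepr and Nampt where useful. 1 result is not reported here. The members and lists were chosen with earlier results of these data known. Alternatives were library totals, DESeq2 1.42.0 (with its local dispersion fit), no filter, the compared groups alone, a replicate block and a dispersion minimum. The others were only the transcript of most counts of each gene and leaving out each library.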

Additional observations from a re-analysis of the deposited data

How the results depend on the processing

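The direction of each of the 6 members held in all 5 comparisons under every alternative in which it was tested. Their calls held there too, except for Retn in Itga5-Low against Itga5-High, as given in the report. With the compared groups alone, Retn had too few counts to be tested in TGF-b1 against mock and in HFD mock against CD mock. With only the transcript of most counts of each gene, 4444 genes were called between the sorted groups (2112 higher, 2332 lower) in place of 7199 (3564 and 3635). That setting also moved the fitted log2 fold change of Cfd from -6.69 to -8.38 with TGF-b1 and from 10.68 to 12.25 for SB431542 against TGF-b1. With diet it moved from -6.77 to -8.38. The Cfd transcript of most counts had 0 counts in the TGF-b1 and HFD groups, so the fitted values are no bounds. With library totals in place of TMM, the median log2 fold change over all genes went from -0.02 to -0.16 with TGF-b1, from 0.04 to 0.30 for SB431542 against TGF-b1 and from 0.01 to 0.12 for SB431542 against mock. Genes called higher with TGF-b1 then numbered 3068 in place of 4705, and genes called lower numbered 3446 in place of 5388 and 2840 in place of 4284 in the other comparisons. The share of calls that were higher went from 49.4% to 31.4%, from 52.0% to 70.0%, from 50.1% to 67.7%, with diet from 50.5% to 33.7%, and by Itga5 from 49.5% to 58.3%. With the replicate number as a replicate block, 9472, 11190, 8539, 7533 and 7063 genes were called in the 5 comparisons in the order of the report, and DESeq2 called 8719, 10898, 7548, 6548 and 5878. No same-numbered pair correlated above 0.1, and 0 of 12 and 0 of 6 libraries correlated best with their own number. The CPM levels of Adipoq, Cfd, Retn and Car3 with TGF-b1 or high-fat diet rest on 0 to 13 counts over 3 libraries, which limits their ratios to the intervals given. The ratios without single libraries were chosen after seeing the data.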

Other observations

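Car3 belongs to a family of enzymes that interconvert carbon dioxide and bicarbonate, and its relatives did not follow it as a block. Of 10 carbonic anhydrases tested in undifferentiated cells, Car3 included, 4 rose and 3 fell with TGF-b1, 7 rose and 3 fell with TGF-b1 and SB431542 against mock (7 and 1 by library totals), and 1 rose and 3 fell with high-fat diet. Car9, a membrane-bound form, read 3.82 ± 0.72 CPM in CD mock, 0.447 ± 0.18 with TGF-b1 and 14.8 ± 1.2 with TGF-b1 and SB431542 (SD, n = 3), the same order as Car3. Car5b, a mitochondrial form, read 7.03, 4.45 and 29.2 CPM in those groups. Car2, a cytosolic form, went the other way with TGF-b1, from 0.434 ± 0.074 to 5.76 ± 0.49 CPM. In differentiated cells Car9 fell by 1.77 and Car4, an anchored form, by 2.38 on the log2 scale from Itga5-High to Itga5-Low cells, while Car5b rose by 0.84 and Car3 by 1.91 (edgeR's quasi-likelihood test, all called). Car2, Car4, Car5b and Car9 were named after their values were seen where the size rule did not name them. Lepr, the leptin receptor, read at most 0.358 CPM on average in any undifferentiated group and had no row in the table of differentiated cells.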
